A study of Homo sapiens with 12 samples.

Results

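The replication-dependent histone genes are the gene copies that supply histones H1, H2A, H2B, H3 and H4 while DNA is copied. They were taken from the deposited expression table as protein-coding genes whose symbol is H1-1 to H1-5 or begins with H2AC, H2BC, H3C or H4C followed by a digit. This gave 69 of the 63187 genes in the table: 5 genes of linker histone H1, 17 of H2A, 19 of H2B, 13 of H3 and 15 of H4. Of the 69, 54 lie on chromosome 6, 13 on chromosome 1, 1 on chromosome 12 (H4C16) and 1 on chromosome 21 (H2BC12L), and gene positions below are those of RefSeq on GRCh38.p14.

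MDA-MB-231 is a cell line established from a human breast adenocarcinoma. Its RNA was sequenced as total RNA depleted of ribosomal RNA, with 12 libraries in 4 groups of 3. Every group was kept for 36 h in medium with 3% serum. The deficient medium had neither glucose nor glutamine, the glucose-only medium had 25 mM glucose, the glutamine-only medium had 4 mM glutamine, and the full medium had both at these amounts. The labels do not say whether the 3 libraries of a medium, named A, B and C, came from separate cultures, so the p-values below measure the spread between libraries, which may be technical. All 12 libraries carry the same batch label.

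Histones form the protein core around which DNA is wound: H2A, H2B, H3 and H4 build the nucleosome, and H1 binds the DNA between nucleosomes. The replication-dependent genes are small, have no introns in their classical form, lie in clusters and are transcribed mainly in S phase, the part of the cell cycle in which DNA is copied. Their messenger RNAs end in a conserved stem-loop instead of a poly(A) tail, and this stem-loop is bound by SLBP, the protein that guides their processing and translation. Because the libraries were made from total RNA, transcripts with no poly(A) tail could be read.

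The libraries held 875033 to 1473587 reads assigned to genes and detected 17414 to 19817 genes each. Values below are normalized counts, the deposited numbers of reads divided by 1 size factor per library, with 1 read worth 0.661 to 1.30. The mesenchymal marker VIM was at 641 to 1047 and the epithelial keratin KRT18 at 235 to 396 in every library. The epithelial keratins KRT8 and KRT19 were at 59.0 to 168 and 63.9 to 164.5. The epithelial marker EPCAM reached 15.04 and the luminal marker GATA3 reached 9.41. The E-cadherin gene CDH1 and the oestrogen receptor gene ESR1 stayed at or under 2.35, the haemoglobin gene HBB was listed at 0 in all 12 libraries, and fibroblast and blood markers stayed at or under 8.26. Among endothelial markers PECAM1 reached 19.7, with a mean of 4.49 in the deficient, 3.49 in the glucose-only, 10.3 in the glutamine-only and 14.9 in the full medium. The other endothelial markers, CDH5 and VWF, stayed at or under 1.21 and were at 0 in the full libraries.

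A gene was tested when 3 or more of the 12 libraries had a normalized count of 10 or above, which kept 9270 genes. Of the histone genes 41 passed: 2 of H1, 12 of H2A, 10 of H2B, 8 of H3 and 9 of H4. The other 28 were too low, and 13 of these had no read in any library. Just inside the limit were H2BC14, H2AC19 and H4C14, with means over all libraries of 10.7, 10.8 and 11.3, and just outside it H2BC6, H2BC12L and H2BC4, with 5.42, 4.03 and 0.681. A gene that passed only through its level in the full medium had to be lower elsewhere, so counts over the 41 describe the genes that could be tested and not the family. H2BC14, H2AC19, H3C13 and H3C15 passed only with their full libraries. A call below means a Benjamini-Hochberg adjusted p under 0.05 over all 9270 genes in limma's moderated test on log2(normalized count + 1), and log2 changes are given with their standard error (SE).

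The promoters of these genes carry short elements that differ by histone type, and they are shown because they set out what the members share apart from expression. RefSeq promoter windows (GRCh38.p14, 250 bases before to 50 after the start) were at hand for 63 of the 69 genes, 37 of them tested. The last 150 bases before the start are printed for the member with the highest mean count of each type, and for H4 for the second highest, H4C2, in place of H4C3. Capitals mark matches on either strand. The motifs searched were the TATA letters TATAAA and the CCAAT box, named by its letters. The octamer was ATTTGCAT. The H4 site was GGTCCG. The H1 box was AAACACA. The E2F-like motif was TTTNGCGC.
H1-2 (chr6:26056471-26056620, minus strand): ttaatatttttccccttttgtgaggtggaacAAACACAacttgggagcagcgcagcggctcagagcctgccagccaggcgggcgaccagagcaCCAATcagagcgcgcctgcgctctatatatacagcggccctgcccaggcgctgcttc
H2AC6 (chr6:26124022-26124171, plus strand): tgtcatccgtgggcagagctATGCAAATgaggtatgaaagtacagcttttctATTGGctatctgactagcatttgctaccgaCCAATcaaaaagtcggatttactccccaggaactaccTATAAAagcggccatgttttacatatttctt
H2BC5 (chr6:26157971-26158120, plus strand): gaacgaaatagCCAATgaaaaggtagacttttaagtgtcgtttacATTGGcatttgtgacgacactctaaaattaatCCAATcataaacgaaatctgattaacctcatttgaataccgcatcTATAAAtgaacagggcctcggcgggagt
H3C3 (chr6:26045234-26045383, plus strand): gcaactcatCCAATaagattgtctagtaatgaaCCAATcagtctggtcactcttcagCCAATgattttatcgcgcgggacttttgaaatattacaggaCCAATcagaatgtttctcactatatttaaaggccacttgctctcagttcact
H4C2 (chr6:26027284-26027433, minus strand): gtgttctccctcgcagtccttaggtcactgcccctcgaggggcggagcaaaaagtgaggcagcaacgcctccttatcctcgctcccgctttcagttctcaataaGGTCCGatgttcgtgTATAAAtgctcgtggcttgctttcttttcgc

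In these windows the TATA letters begin 31 bases before the start in H2AC6 and H4C2 and 28 bases before it in H2BC5. H3C3 has 4 CCAAT matches and H2BC5 has 3, while H4C2 has none and carries the H4 site 46 to 41 bases before its start. The same division ran through the tested genes. CCAAT, the letters bound by the factor NF-Y, was found in 2 of 2 H1, 11 of 11 H2A, 10 of 10 H2B and 7 of 7 H3 promoters and in 0 of 7 H4 promoters, against 35.7% of the 27305 promoters in the table. The H4 site, recognised by the H4 gene regulator HINFP, was in 7 of 7 H4 promoters, in 1 of 11 of H2A, in 1 of 10 of H2B and in 0 of 7 of H3, against 11.2% of all promoters. The octamer, bound by OCT1 (POU2F1), was in 7 of 11 H2A and 7 of 10 H2B promoters and in no other tested type, against 1.80% of all. The H1 box was in 2 of 2 H1, 2 of 7 H3, 1 of 11 H2A, 0 of 10 H2B and 0 of 7 H4 promoters, against 5.76% of all. The TATA letters were in 29 of 37 and 11.95% of all. The E2F-like letters were in 10 of 37 and 1.83% of all, with 4 of these in H2A and 6 in H2B. A match is a run of letters, not a bound site.

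The other shared element is the stem-loop at the end of the messenger RNA, the site that SLBP binds. It was searched in GENCODE release 29 transcripts, which matched 65 of the 69 genes, as a stem of 6 paired bases that opens with GG and closes with CC around a loop of 4 bases that opens with TTT. It was found in 28 of the 65, and no match says only that these letters are not in the annotated transcript. In the last 100 bases of the transcript it was found in 8 of the 65, against 6 of 19619 other protein-coding genes (0.0306%). For matches anywhere in a transcript no share of other genes was counted. All 28 stem-loops were 1 of 5 sequences, printed here as DNA of the transcript strand with the 16 bases of stem and loop in capitals.
H2AC6: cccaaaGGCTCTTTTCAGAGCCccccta
H2BC5: cccaaaGGCTCTTTTAAGAGCCacgcat
H4C2: tccaatGGCCCTTTTCAGGGCCgcccac
H4C14: cccaaaGGCCCTTTTTAGGGCCgaccac
H2AC11: accaacGGCTCTTTTCAGGGCCacccac

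The form of H2AC6 was in 15 genes of H2A, H2B and H3, that of H2BC5 in 4, that of H4C2 in 5 H4 genes, that of H4C14 in 3 H4 genes and that of H2AC11 in that gene alone. The 4 bases of the loop were the same in H2AC6, H4C2 and H2AC11. The arms of the stem in the H4 genes differed from those of H2AC6 and H2BC5.

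Histone RNA was far lower in each depleted medium than in the full medium. The 69 genes together summed to normalized counts of 1021, 1070 and 1019 in the deficient libraries, to 2384, 2377 and 2573 in the glucose-only libraries, to 1546, 1574 and 1455 in the glutamine-only libraries and to 6239, 6985 and 6254 in the full libraries. No library of 1 medium overlapped with those of another. The sum was 15.96% of its full-medium mean in the deficient, 37.6% in the glucose-only and 23.5% in the glutamine-only medium. As a share of all reads, these genes took 0.0842 ± 0.0049% in the deficient, 0.225 ± 0.0038% in the glucose-only, 0.151 ± 0.0052% in the glutamine-only and 0.696 ± 0.032% in the full medium (SD, n = 3 each). As sums over the members these values are given with no test. In bulk RNA, fewer cells in S phase and less histone RNA in each such cell cannot be told apart.

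**Figure D1:**
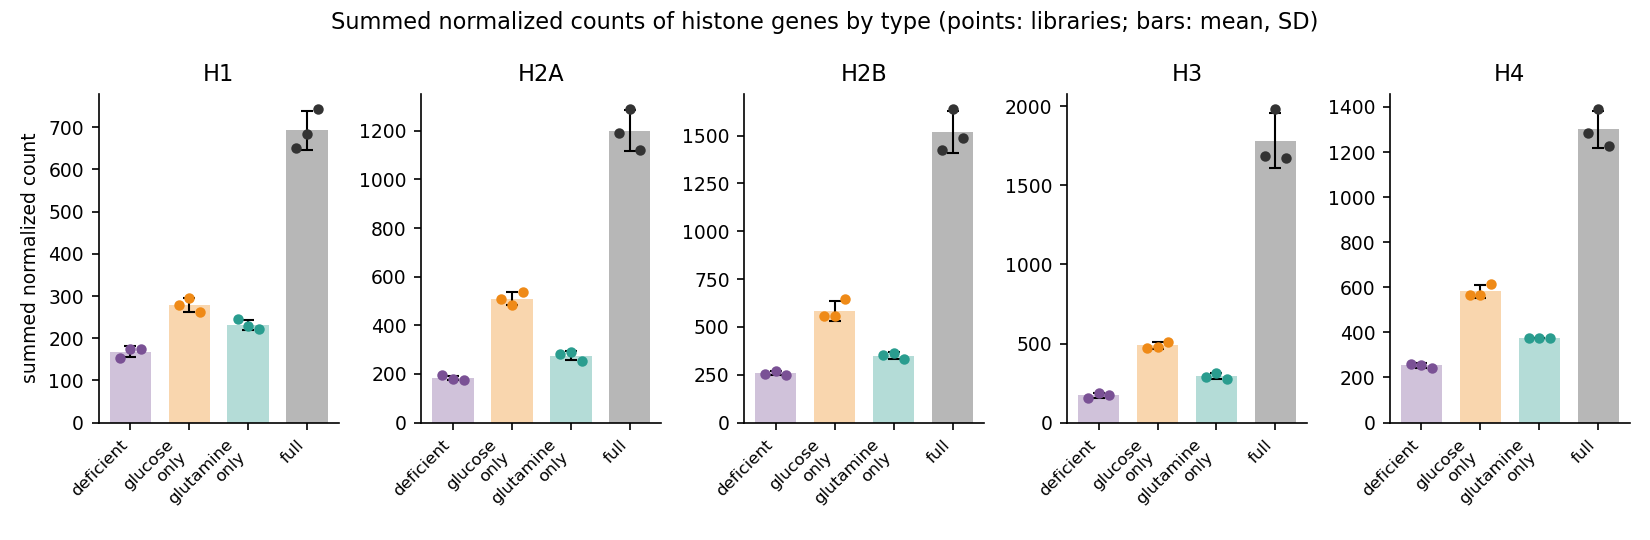
Summed normalized counts (y axis, 1 scale per panel, from 0) of H1, H2A, H2B, H3 and H4 genes in the 4 media. Points are the 3 libraries of a medium, bars their mean and error bars their SD; in each panel the full medium is highest and the deficient medium lowest, with H3 at 9.75% of full in the deficient medium and H1 at 24.1%.

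The types did not fall to the same depth. In the deficient medium the H3 sum was at 9.75% of its full-medium mean, H2A at 15.3%, H2B at 17.01%, H4 at 19.5% and H1 at 24.1%. H3 was also the lowest in the other media, at 27.4% in glucose-only and 16.4% in glutamine-only medium. The H3 genes made up 16.7 ± 1.14% of the histone sum in deficient and 27.4 ± 0.86% in full libraries, while H1 made up 16.2 ± 1.13% in deficient and 10.7 ± 1.06% in full libraries (SD, n = 3 each). A single gene, H3C3, bears on the H3 values: it averaged 937 of the H3 sum of 1781 in the full medium and 68.4 of 174 in the deficient medium. The H1 sum came almost wholly from H1-2 and H1-4, which differed. In the deficient medium H1-2 stood at 33.2% and H1-4 at 13.7% of full. H2A, H2B and H4 held 17.7, 24.9 and 24.5% of the sum in deficient and 18.5, 23.4 and 20.04% in full libraries.

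The first comparison asked what loss of both nutrients changed. In the deficient medium all 41 tested histone genes fell against the full medium, each by more than 2-fold, where 25.5% of all tested genes were called lower. The median log2 change of the 41 was -2.89, beside 0.01 for all genes, and the range ran from -4.98 to -1.59. By type the median was -3.52 for the 8 H3 genes, -2.88 for the 10 H2B, -2.70 for the 12 H2A, -2.30 for the 9 H4 and -2.21 for the 2 H1 genes. Loss of glutamine alone, in the glucose-only medium, left 38 of 41 lower than in the full medium (13.5% of all genes), 34 of them by more than 2-fold, with a median of -1.27. Loss of glucose alone, in the glutamine-only medium, left 41 of 41 lower (11.6% of all genes), with a median of -2.09 and a range of -4.10 to -1.17. These 3 comparisons share the full libraries. The counts and medians include H2BC14, H2AC19, H3C13 and H3C15, which passed the filter only with those libraries. That these genes were lower in the other media was fixed by the filter and adds nothing to the counts.

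**Figure D2:**
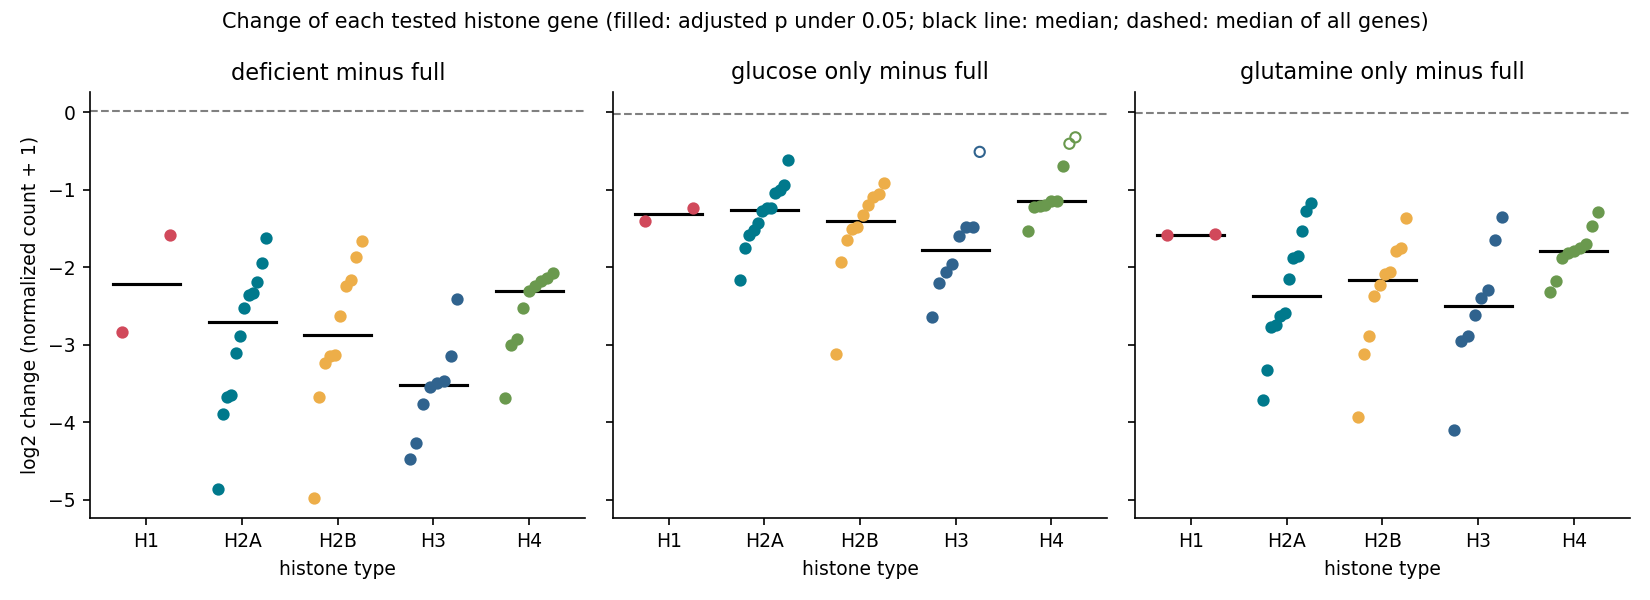
Log2 change (y axis) of each of the 41 tested histone genes against the full medium, by histone type (x axis), in the deficient, glucose-only and glutamine-only medium. Filled points passed an adjusted p of 0.05, black lines are medians of a type and the dashed line is the median of all genes; every point lies below 0, and 3 open points stand in the glucose-only panel.

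Among linker histones, which compact the fibre between nucleosomes, H1-2 and H1-4 were the tested genes and moved apart. H1-2 (ENSG00000187837, chromosome 6, 26055740 to 26056470) had 107, 127 and 130.4 in deficient, 158, 167 and 142 in glucose-only, 134, 118 and 116 in glutamine-only and 347, 353 and 398 in full libraries. Its full libraries stood above all others, and its deficient and glutamine-only libraries overlapped. H1-4 (ENSG00000168298, chromosome 6, 26156329 to 26157115) had 45.6, 45.9 and 43.5 in deficient, 122, 129 and 119.9 in glucose-only, 111, 111 and 103 in glutamine-only and 304, 333 and 345 in full libraries. Here the deficient libraries stood apart from every other library. For deficient minus full the log2 change was -1.59 ± 0.11 for H1-2 (adjusted p = 8.87e-13), the smallest fall among the 41, and -2.83 ± 0.11 for H1-4 (adjusted p = 9.72e-19). For glutamine-only minus deficient it was 0.02 ± 0.11 for H1-2 (adjusted p = 0.924) and 1.25 ± 0.11 for H1-4 (adjusted p = 2.25e-10). H1-1, H1-3 and H1-5 were not tested, with 3, 0 and 3 reads over the 12 libraries.

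Of the H2A genes, whose product pairs with H2B, H2AC6 and H2AC12 were the most abundant tested members. H2AC6 (ENSG00000180573, chromosome 6, 26124172 to 26124690) had 61.2, 64.0 and 58.2 in deficient, 134, 118 and 119.9 in glucose-only, 84.8, 85.7 and 80.2 in glutamine-only and 191, 184 and 194 in full libraries. The 4 media did not overlap, and its change was the smallest of all in the glutamine-only medium. H2AC12 (ENSG00000274997, chromosome 6, 27147106 to 27147562) had 23.4, 22.9 and 18.6 in deficient, 56.6, 53.4 and 62.3 in glucose-only, 27.96, 27.0 and 23.3 in glutamine-only and 162, 182 and 155 in full libraries. For deficient, glucose-only and glutamine-only minus full the log2 changes of H2AC6 were -1.62 ± 0.11, -0.61 ± 0.11 and -1.17 ± 0.11 (adjusted p = 7.58e-13, 0.000151 and 2.96e-09). Those of H2AC12 were -2.89 ± 0.15, -1.52 ± 0.15 and -2.63 ± 0.15 (adjusted p = 2.68e-15, 1.54e-08 and 1.30e-13). Near the other end, H2AC14 had 1.30, 2.42 and 1.55 in deficient, 33.7, 27.2 and 24.7 in glucose-only, 6.31, 9.63 and 1.86 in glutamine-only and 78.7, 85.5 and 70.6 in full libraries. It had 5 reads in all deficient and 287 in all full libraries, a ratio of 45.2 in favour of full (95% exact counting interval 19.1 to 140.1, for counting error only). H2AC21 stood at 14.9 ± 2.57 in deficient, 24.9 ± 4.00 in glucose-only, 24.7 ± 6.53 in glutamine-only and 59.7 ± 4.19 in full medium, and its 2 media with 1 nutrient overlapped.

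For H2B, the other partner of that pair, H2BC5 and H2BC17 led. H2BC5 (ENSG00000158373, chromosome 6, 26158121 to 26171349) had 80.7, 97.8 and 88.5 in deficient, 151, 149 and 216 in glucose-only, 95.6, 108 and 93.2 in glutamine-only and 388, 475 and 413 in full libraries. Its deficient and glutamine-only libraries overlapped, as those of H1-2 did. H2BC17 (ENSG00000274641, chromosome 6, 27893425 to 27893891) had 18.2, 32.6 and 20.2 in deficient, 78.3, 68.1 and 77.6 in glucose-only, 43.3, 44.3 and 44.7 in glutamine-only and 199, 227 and 205 in full libraries, with no overlap between media. For deficient minus full the log2 changes were -2.24 ± 0.13 for H2BC5 (adjusted p = 1.11e-14) and -3.14 ± 0.16 for H2BC17 (adjusted p = 1.09e-15). The lowest of the tested H2B genes was H2BC14, with 1 read in all 3 deficient libraries, 9 in glucose-only, 5 in glutamine-only and 137 in full libraries. It was at 10 or above only in the full libraries, so it was tested only through the medium where it is high. Its reads, scaled by the size factors, stood in a ratio of full to deficient of 108, with a 95% exact counting interval of 19.02 to 4288, of full to glucose-only of 10.9 (5.60 to 24.4) and of full to glutamine-only of 24.1 (10.1 to 75.3). H2BC15 had 26.4 ± 5.38 in deficient, 45.1 ± 8.26 in glucose-only, 32.3 ± 2.98 in glutamine-only and 85.2 ± 12.5 in full medium.

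The H3 genes encode the core histone whose tail carries many of the best known chromatin marks, and they showed the deepest median fall. H3C3 (ENSG00000287080, chromosome 6, 26045384 to 26045869) had 62.5, 62.8 and 80.0 in deficient, 230.1, 217 and 223 in glucose-only, 148, 164 and 144 in glutamine-only and 854, 1050 and 908 in full libraries. It was the most abundant histone gene in the full medium. Among genes that span under 1000 bases it was also highest per length, at 1928 per kb of gene against 975 per kb for H4C3, the next. Longer genes, H2BC5 among them, were given no value per kb. In the deficient medium the order of the genes under 1000 bases by mean count per kb was different, with H4C3 at 203, H1-2 at 166, H4C2 at 162 and H3C3 at 141. H3C2 (ENSG00000286522, chromosome 6, 26031589 to 26032099) had 69.0, 73.6 and 64.5 in deficient, 128, 132 and 139 in glucose-only, 52.3, 89.6 and 71.8 in glutamine-only and 372, 423 and 323 in full libraries. For deficient, glucose-only and glutamine-only minus full the log2 changes of H3C3 were -3.76 ± 0.11, -2.06 ± 0.11 and -2.61 ± 0.11 (adjusted p = 2.59e-21, 1.65e-14 and 7.52e-17). Those of H3C2 were -2.41 ± 0.14, -1.47 ± 0.14 and -2.40 ± 0.14 (adjusted p = 1.93e-14, 4.45e-09 and 1.30e-13). With glutamine alone, then, H3C2 did not pass against the deficient medium (0.01 ± 0.14, adjusted p = 0.951), while H3C3 rose by 1.15 ± 0.11 (adjusted p = 1.81e-09).

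H3C12 and H3C13 were among the lowest H3 genes outside the full medium. H3C12 had 5.21, 7.25 and 3.11 in deficient, 13.3, 22 and 17.6 in glucose-only, 11.7, 3.85 and 3.73 in glutamine-only and 98.5, 117 and 126 in full libraries, with log2 changes of -4.26 ± 0.34, -2.64 ± 0.34 and -4.10 ± 0.34 against full (adjusted p = 1.67e-11, 8.47e-07 and 1.52e-10). H3C13 passed the filter only with its full libraries. It had 5 reads in all deficient and 217 in all full libraries, a ratio of 34.1 in favour of full (95% exact counting interval 14.4 to 106). H3C1 stood at 6.39 ± 3.44 in deficient, 15.7 ± 4.94 in glucose-only, 14.3 ± 1.67 in glutamine-only and 74.0 ± 11.6 in full medium (SD, n = 3 each), so that for this gene the media with 1 nutrient overlapped.

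The H4 genes, whose product joins H3 in the centre of the nucleosome, had the smallest median fall among the core types in each depleted medium. H4C3 (ENSG00000197061, chromosome 6, 26103933 to 26104337) had 80.7, 85.7 and 80.8 in deficient, 129, 140.4 and 139.9 in glucose-only, 116, 90.5 and 115 in glutamine-only and 353, 418 and 414 in full libraries. H4C2 (ENSG00000278705, chromosome 6, 26026896 to 26027283) had 72.9, 53.1 and 62.9 in deficient, 123, 106 and 127 in glucose-only, 74.9, 101 and 80.2 in glutamine-only and 284, 319.6 and 235 in full libraries. In both genes the deficient medium was lowest and the full medium highest with no overlap. For deficient minus full the log2 changes were -2.24 ± 0.11 for H4C3 (adjusted p = 7.58e-16) and -2.13 ± 0.14 for H4C2 (adjusted p = 1.85e-13). H4C16, the lone member on chromosome 12, had 7.81, 18.1 and 12.4 in deficient, 41.0, 44.0 and 56.4 in glucose-only, 44.2, 37.6 and 45.7 in glutamine-only and 112, 117 and 86.2 in full libraries. Its media with 1 nutrient overlapped and both stood above the deficient medium, at log2 changes of 1.86 ± 0.21 for glucose-only and 1.72 ± 0.21 for glutamine-only (adjusted p = 4.94e-08 and 2.25e-07).

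The 3 genes that did not pass in glucose-only minus full were H3C14, H4C14 and H4C11. H4C11 had 11.7, 14.5 and 6.21 in deficient, 43.4, 40.9 and 45.9 in glucose-only, 24.4, 20.2 and 13.98 in glutamine-only and 59.5, 52.6 and 51.4 in full libraries, a log2 change for glucose-only minus full of -0.32 ± 0.25 (adjusted p = 0.379). Its 3 glucose-only libraries nevertheless all lay below its 3 full libraries, as did those of 40 of the 41 genes. H3C14 was at 1.61 ± 0.622 in deficient, 19.3 ± 1.09 in glucose-only, 8.35 ± 1.59 in glutamine-only and 29.7 ± 11.9 in full medium, and H4C14 at 3.35 ± 2.79, 15.6 ± 1.13, 5.27 ± 0.407 and 20.97 ± 1.15 in the same media (SD, n = 3 each). The log2 changes for glucose-only minus full were -0.51 ± 0.35 (adjusted p = 0.321) for H3C14 and -0.40 ± 0.38 (adjusted p = 0.489) for H4C14.

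The second set of comparisons asked what either nutrient alone did for cells that would otherwise have neither. Glucose alone left 40 of the 41 genes higher than in the deficient medium, where 20.1% of all tested genes were called higher, with a median log2 change of 1.503 and 32 genes past 2-fold. The gene that did not pass was H2AC19, at 0.61 ± 0.41 (adjusted p = 0.239). The largest changes were those of H2AC14, at 3.43 ± 0.36, and H3C14, at 2.98 ± 0.35 (adjusted p = 9.25e-09 and 8.54e-08), 2 genes with under 3 normalized counts in every deficient library. The smallest called change was that of H1-2, at 0.36 ± 0.11 (adjusted p = 0.00967), and its call was lost without deficient replicate A (0.27) or glucose-only replicate B (0.31), with a constant prior variance and in DESeq2 (0.38).

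Glutamine alone left 24 of the 41 higher than in the deficient medium, where 19.9% of all tested genes were called higher, with a median of 0.67 and 11 genes past 2-fold. These were 7 of 9 H4, 5 of 8 H3, 6 of 12 H2A, 5 of 10 H2B and 1 of 2 H1 genes. Of the most abundant, H1-4 and H3C3 passed, at 1.25 and 1.15, and H4C3 passed at 0.37 ± 0.11 (adjusted p = 0.0105), a call that was lost without glutamine-only replicate A (0.30) or C (0.31), with no filter, with a constant prior variance and in DESeq2 (0.40). H2BC5 (0.15 ± 0.13, adjusted p = 0.358) and H2AC12 (0.26 ± 0.15, adjusted p = 0.185) did not pass. The highest value was that of H3C15, at 2.20 ± 0.38 (adjusted p = 3.38e-05), which had 4 reads in all deficient libraries.

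Set directly against each other, the glutamine-only medium had lower histone RNA than the glucose-only medium. In glutamine-only minus glucose-only 30 of 41 genes were lower and 0 higher, with 11 not called, and the median was -0.81, where 5.05% of all tested genes were called lower. H2AC14 was at -2.27 ± 0.36 (adjusted p = 3.76e-05), H2AC12 at -1.11 ± 0.15 (adjusted p = 6.00e-06) and H3C3 at -0.55 ± 0.11 (adjusted p = 0.000642). The order deficient, glutamine-only, glucose-only, full, from low to high, held for the means of 39 of the 41 genes. The exceptions were H2BC18, with means of 12.7 in deficient and 11.1 in glutamine-only medium, and H3C15, with 9.14 in glucose-only and 10.5 in glutamine-only medium, and neither of these pairs differed beyond its spread (adjusted p = 0.626 and 0.871). H3C15 was also lower in glutamine-only than in full medium, at -1.35 ± 0.38 (adjusted p = 0.00987), a call lost without glutamine-only replicate C (-1.07), full replicate B (-1.24) or full replicate C (-1.21).

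The 4 media form a square, so it could be asked whether the change with glucose was the same with and without glutamine. The interaction is the log2 difference of full and glucose-only medium less that of glutamine-only and deficient medium, and is above 0 where both nutrients together gave more than the product of their single effects. Of the 41 genes 17 were called above 0 and 1 below, where 15.5% of all tested genes were called above and 11% below, and the median was 0.68, beside 0.06 for all genes. By type 7 of 10 H2B, 4 of 8 H3, 3 of 9 H4, 2 of 12 H2A and 1 of 2 H1 genes were called above 0. H1-2 stood at 1.21 ± 0.16 (adjusted p = 8.77e-07), H3C2 at 1.46 ± 0.20 (adjusted p = 2.40e-06) and H4C3 at 1.16 ± 0.16 (adjusted p = 3.00e-06), while H1-4 stood at 0.15 ± 0.15 (adjusted p = 0.513) and H2AC6 at 0.17 ± 0.16 (adjusted p = 0.473). H3C12 had the highest value, at 2.48 ± 0.48 (adjusted p = 0.000263). H3C14 was the gene below 0, at -1.34, a call lost in 9 of the 12 fits that leave out 1 library, which gave -0.98 to -1.46 and kept it only without deficient replicate C, glutamine-only replicate B or full replicate A, and lost in edgeR (-1.56) and DESeq2 (-1.68), with the replicate block (-1.34), at equal totals (-1.31), with quantile normalization (-0.91), with a pseudocount of 8 (-0.35) and with no filter. H4C16 (-0.58 ± 0.30, adjusted p = 0.160) and H3C15 (-0.72 ± 0.54, adjusted p = 0.344) lay below 0 without a call. On chromosome 6, 16 of 29 tested genes were called above 0, and on chromosome 1, 1 of 11. Most of the tested chromosome 1 genes had low counts and a wide SE, which makes a call harder. Several of them share sequence with other copies, as set out below, and a difference between the chromosomes was not tested.

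**Figure D3:**
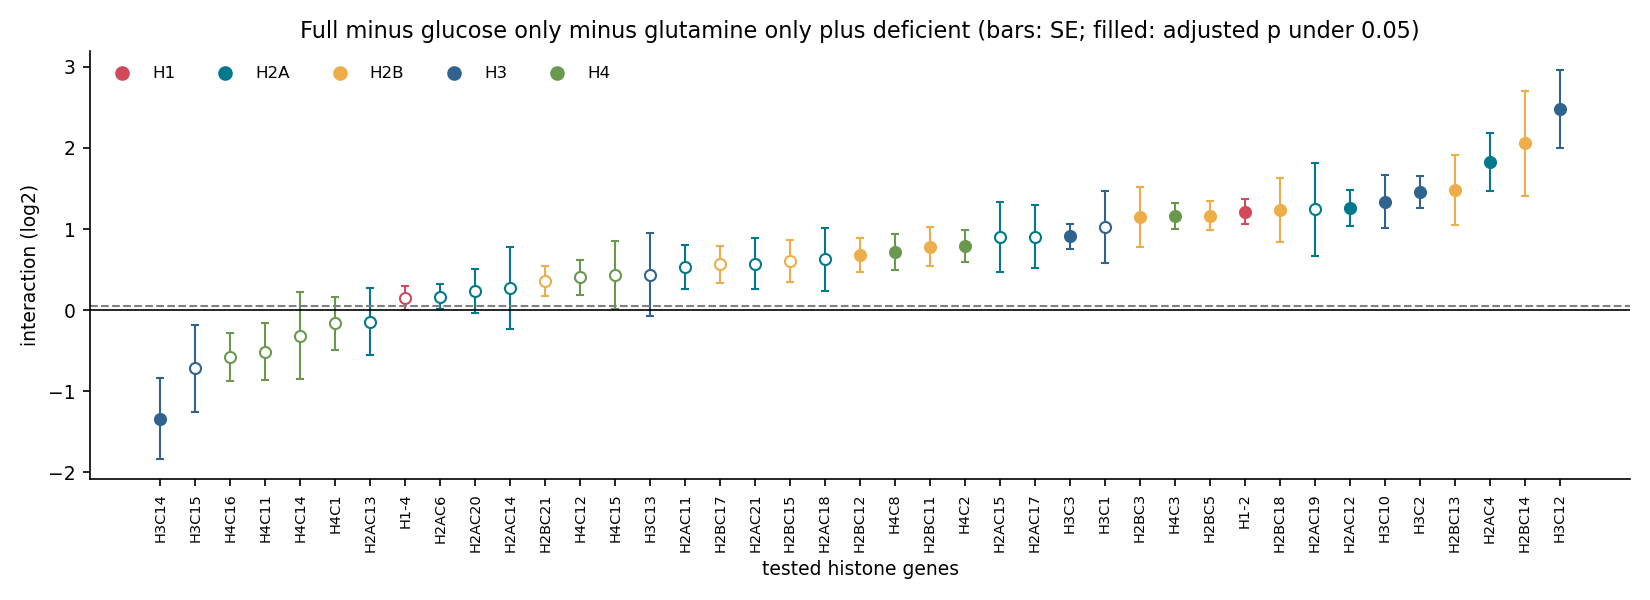
Interaction on the log2 scale (y axis) for each of the 41 tested histone genes, in rising order (x axis), coloured by histone type, with SE as error bars. Filled points passed an adjusted p of 0.05 and the dashed line is the median of all genes; 34 of the 41 points lie above 0, and H3C14 is the only filled point below it.

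Gene copies that are nearly alike share reads that cannot be placed, and the notes on the deposited counts do not say how such reads were handled. Among the tested genes, all windows of 100 bases in the GENCODE 29 transcripts of H3C14, H3C15 and H4C12 also occur in another gene, as do 94.9% of those of H4C14 and 97.1% of those of H4C15. The share was 84.0% for H2AC17, 80.9% for H2AC14, 77.7% for H4C11, 57.7% for H2AC13 and 51.3% for H3C13. The single values of these 10 genes are therefore uncertain. Among them are H2AC14 and H3C13, whose ratios are given above, all 3 genes not called in glucose-only minus full, and H3C14, the gene called with an interaction below 0. Other tested genes had smaller shares, among them H3C12 (36.5%), H2BC12 (28.4%), H2BC18 (17.6%) and H2AC20 (17.2%). The values of these genes, with the interaction of H3C12, are uncertain in the same way to a lesser extent. H3C2, H3C3, H2AC18 and H2AC19 matched no transcript of that release and were not checked in this way. For tested members in all, the median share of windows found elsewhere was 0% at 100 bases and 5.36% at 50 bases (n = 37). Exons of 4 of these 37 genes overlap another annotated gene on the opposite strand. The other gene is FCGR1A for H2BC18 and BOLA1 for H2AC21, while H2AC15 and H2BC15 overlap each other. H2BC15 also overlaps the histone gene H2AC16 on its own strand. The library kit keeps strand, but whether counting used it is not given in the sources used here. The remaining 33 had a median log2 change for deficient minus full of -3.10, and the 4 had -1.91.

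The genes also differed by where and how they are annotated. For deficient minus full the median was -3.10 for the 29 tested genes of chromosome 6 and -2.53 for the 11 of chromosome 1. It was -3.05 for the 36 genes that span under 1000 bases and -2.24 for the 5 with a longer span (H2BC5, H2BC12, H2BC18, H2BC21 and H4C15). In the glutamine-only medium the medians of these span groups were -2.19 and -2.06, and in the glucose-only medium -1.41 and -1.19. These are descriptions of groups that also differ in histone type, and no test was made between them.

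Along chromosome 6 the untested genes were not scattered. From H4C4 to H2BC10 (26188710 to 26273412) 15 consecutive histone genes had 4 reads in all 12 libraries together, and 11 of the 15 had none. This stretch also holds the 4 other annotated genes that lie wholly in it, which had 0 reads. On its sides were H2BC6, with a mean of 5.42, and beyond that H2BC5, with 196, and on the far side H4C8, with 72.7. A second, shorter stretch from H2AC16 to H4C13 (27865317 to 27873534) held 4 genes with 6 reads in all, between H2BC15 (47.3) and H3C12 (35.7). Single genes near 0 stood beside abundant ones elsewhere: H2BC4 had 9 reads next to H2AC6, and H4C9 had 4 reads inside the span of H2BC12. In the longer stretch the median share of 100-base windows that also occur in other genes was 0%, but it was 100% for H3C4 and 97.6% for H2AC7. Exons of H3C4 and H2AC7 overlap another annotated gene on the same strand, and those of H2AC16 in the shorter stretch overlap H2BC15 on the same strand. Why the genes of both stretches, H2BC4 and H4C9 are listed at or near 0 in every medium was not tested. A value of 0 in this table does not show that a gene is silent.

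**Figure D4:**
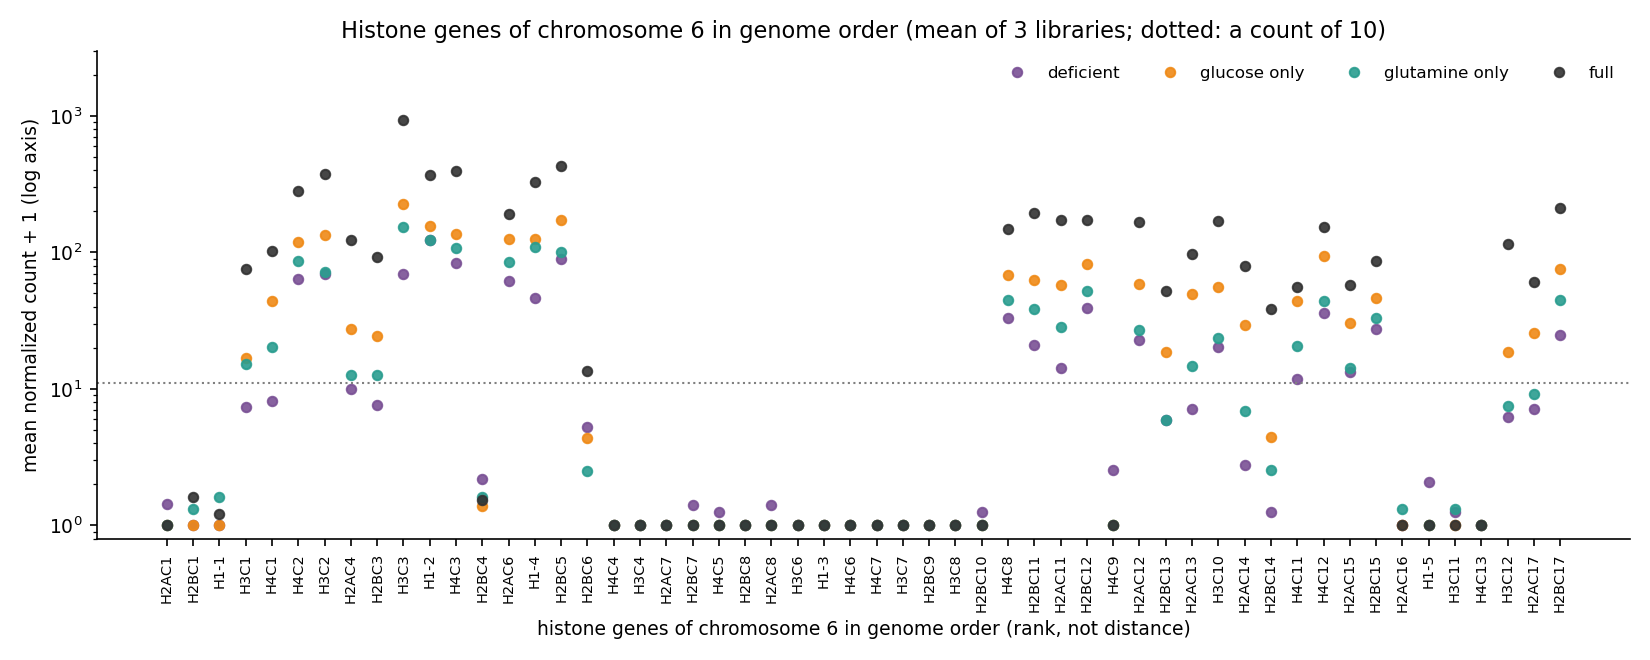
Mean normalized count plus 1 (y axis, log scale) of the 54 histone genes of chromosome 6 in the 4 media, in genome order by rank (x axis, not to distance), each point the mean of 3 libraries. The dotted line marks a count of 10; the 15 genes from H4C4 to H2BC10 and the 4 from H2AC16 to H4C13 lie near the floor in every medium, and for the tested genes the full medium is highest.

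The variant and replacement histones, which are made outside S phase as well, were read beside them. Of 12 such genes 9 were tested. In the deficient medium 6 of 9 were lower than in the full medium (25.5% of all genes) and 0 higher, with a median log2 change of -0.82. H2AZ2, a variant of H2A found at promoters, was at 68.5 ± 10.8 in deficient, 159 ± 14.7 in glucose-only, 157 ± 15.8 in glutamine-only and 283 ± 23.3 in full medium, and fell by 2.04 on the log2 scale in the deficient medium (adjusted p = 3.22e-14). H2AX, the variant marked at DNA breaks, was at 75.2 ± 7.68 in deficient, 77.7 ± 7.22 in glucose-only, 71.0 ± 11.7 in glutamine-only and 134 ± 16.4 in full medium. H3-3B is 1 of the 2 genes of the replacement histone H3.3. It was at 210.2 ± 22.3 in deficient, 161 ± 7.28 in glucose-only, 147 ± 12.8 in glutamine-only and 207 ± 12.1 in full medium. Its log2 change against full was 0.02 in deficient (adjusted p = 0.911), -0.36 in glucose-only (adjusted p = 0.0142) and -0.49 in glutamine-only medium (adjusted p = 0.000967). Further members named by the rule were MACROH2A1 (-1.02), H2AZ1 (-0.72) and H3-3A (-0.22, adjusted p = 0.457), in log2 for deficient minus full. H3-3A was not called in glucose-only minus full (-0.22, adjusted p = 0.554) and was lower in glutamine-only minus full (-0.75, adjusted p = 0.0239). In glucose-only minus full 6 of 9 were lower (13.5% of all genes), with a median of -0.50. That count was 3 without full replicate B. In glutamine-only minus full 6 of 9 were lower (11.6% of all genes), with a median of -0.49. No gene of the list was higher in either medium, where 9.44% of all genes were called higher in glucose-only and 10.8% in glutamine-only medium. Their summed count stood at 58.5% of full in the deficient, 69.8% in the glucose-only and 66.8% in the glutamine-only medium.

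Genes of DNA replication and of mitosis followed with values of their own. The list of DNA replication genes had 29 of 39 tested lower in the deficient medium (median -1.22), 8 of 39 in the glucose-only medium (median -0.36) and 29 of 39 in the glutamine-only medium (median -0.96), with 0 higher in each. Of all tested genes 25.5% were called lower in the deficient, 13.5% in the glucose-only and 11.6% in the glutamine-only medium, and the count in glucose-only medium lies nearest to that share. The count of 8 was 5 without full replicate C and 16 with libraries scaled to equal totals. RRM2, a subunit of the enzyme that makes deoxynucleotides, had 8.21 ± 2.33 in deficient, 44.7 ± 6.49 in glucose-only, 23.6 ± 0.411 in glutamine-only and 106 ± 2.40 in full medium. PCNA, the sliding clamp of DNA polymerase, had 31.1 ± 3.75 in deficient, 46.7 ± 4.76 in glucose-only, 30.3 ± 6.59 in glutamine-only and 81.2 ± 13.1 in full medium, and its deficient and glutamine-only libraries overlapped. TK1, CLSPN and MCM6 had log2 changes for deficient minus full of -2.82, -2.09 and -2.05. The list of mitosis genes had 35 of 35 lower in the deficient (median -2.23), 35 of 35 in the glucose-only (median -1.14) and 34 of 35 in the glutamine-only medium (median -1.51). MKI67, the proliferation marker, had 82.8 ± 17.6 in deficient, 239 ± 15.8 in glucose-only, 129 ± 8.28 in glutamine-only and 533 ± 11.7 in full medium. KIF20A, TOP2A, ASPM and NDC80 had log2 changes of -3.45, -3.23, -3.01 and -2.88 in the deficient medium. Summed counts of the mitosis list stood at 24.03, 44.96 and 33.9% of full in the deficient, glucose-only and glutamine-only medium, and those of the DNA replication list at 48.5, 74.5 and 48.9%. How far these lists and the histone genes differ was not tested.

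**Figure D5:**
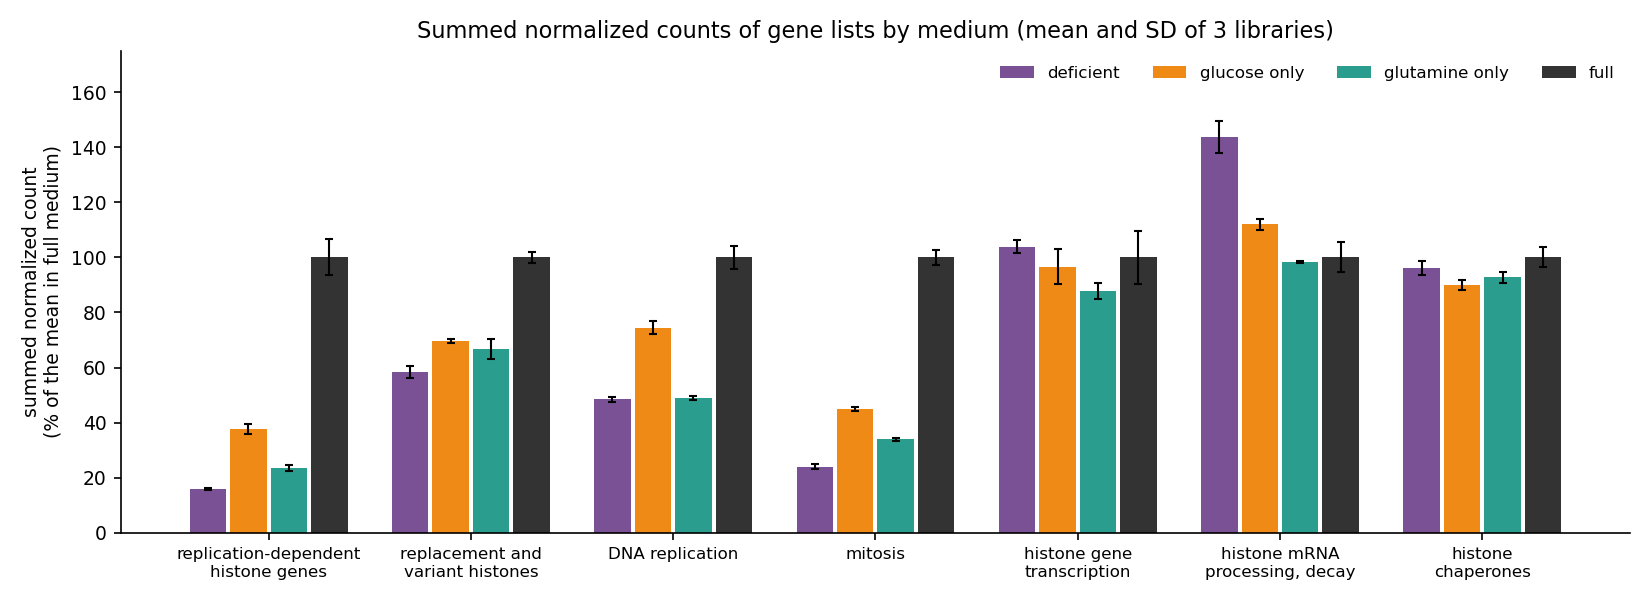
Summed normalized counts as a percentage of the mean in full medium (y axis, from 0) for the histone genes and 6 other gene lists (x axis), in the deficient, glucose-only, glutamine-only and full medium; bars are means of 3 libraries and error bars their SD. The histone genes are lowest in the deficient medium, at 15.96% of full, and the list of histone mRNA processing and decay is at 144% there.

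The machinery that makes, processes and carries histones was mostly closer to its level in full medium. Of 8 tested regulators of histone gene transcription 3 were lower in the deficient medium and 3 higher. Of all genes 25.5% were called lower there and 26.3% higher. CDK2, the kinase that phosphorylates the histone gene coactivator NPAT, had 12.1 ± 2.63 in deficient and 41.1 ± 1.29 in full medium, and E2F1, a driver of S-phase genes, had 12.1 ± 3.54 and 39.3 ± 16.5 in the same media. NPAT itself had 84.1 ± 4.98 in deficient and 87.6 ± 6.07 in full medium (log2 change -0.06 ± 0.13, adjusted p = 0.727). HINFP, which binds the H4 site shown above, had 46.3 ± 3.05 in deficient and 25.2 ± 2.71 in full medium, and YY1 had 155 ± 2.48 and 95.3 ± 4.01 in the same media. The 3 higher calls were absent when libraries were scaled to equal totals. In the glucose-only medium 1 of the 8 was higher (9.44% of all genes) and 0 lower (13.5%). The higher gene was GON4L, at 0.45 (adjusted p = 0.0489). Its call was lost without any 1 of glucose-only replicates A and C or full replicates A and C. It was also lost without deficient replicate C, without glutamine-only replicate A or B, and at equal totals. In the glutamine-only medium 0 were higher and 3 lower (11.6% of all genes), namely E2F1, CDK2 and CDC25A. The call of E2F1 was lost without glutamine-only replicate B or full replicate B.

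Of 13 tested genes of histone mRNA processing and decay 4 were higher in the deficient medium and 0 lower, a share close to the 26.3% of all genes called higher. They were ZNF473, a zinc finger protein of the U7 processing complex, TUT7, which adds uridines to histone mRNA that is to be degraded, the cap-binding gene NCBP2 and its partner SRRT, with log2 changes of 2.46, 1.25, 0.86 and 0.82. ZNF473 had 62.2 ± 6.75 in deficient, 18.1 ± 6.08 in glucose-only, 12.4 ± 2.58 in glutamine-only and 10.5 ± 1.83 in full medium. SLBP, the stem-loop binding protein, had 44.5 ± 2.31 in deficient, 46.9 ± 6.08 in glucose-only, 39.2 ± 3.67 in glutamine-only and 48.8 ± 2.55 in full medium (deficient minus full -0.13 ± 0.16, adjusted p = 0.509). Scaled to equal totals, 3 genes of this list were called lower. In the glucose-only medium 1 of the 13 was higher (9.44% of all genes) and 0 were lower. The higher gene was SYMPK, at 0.53 (adjusted p = 0.0167), a call lost without glucose-only replicate C or full replicate A and at equal totals. In the glutamine-only medium 0 of 13 passed in either direction. Of 17 tested histone chaperones, the carriers of histones outside chromatin, 8 were lower in the deficient medium, where 25.5% of all genes were called lower, and 1 was higher, a call that was absent with equal totals or quantile normalization. HJURP, the chaperone of centromeric CENPA, had 13.2 ± 3.80 in deficient and 73.2 ± 7.70 in full medium, and MMS22L, RBBP7 and CABIN1 had log2 changes of -2.09, -1.21 and -0.87. In the glucose-only medium 4 of the 17 chaperones were lower (13.5% of all genes) and 0 higher, a count of 2 without glucose-only replicate B or full replicate C. In the glutamine-only medium 6 were lower (11.6% of all genes) and 1 higher (10.8% of all genes). The higher gene was NAP1L1, at 0.30 (adjusted p = 0.0200), a call lost without glutamine-only replicate A or C or full replicate A and at equal totals. ASF1B, the H3-H4 chaperone tied to proliferation, is listed at 0 in all 12 libraries.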

How the data were processed

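The 12 libraries, 3 for each of 4 media, were made with a stranded total RNA kit and ribosomal depletion per the labels. Per the submitters' processing notes the tools were FastQC, HISAT2, Subread and DESeq2 and the build GRCh38.p14; their versions, the annotation and the strand setting of counting are not given in the sources used here. The deposited values are a signal, read counts divided by 1 size factor per library; 100% of them gave whole reads within 0.01 of a read, and size factors recomputed from those reads were the same as those of the authors.

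Genes at 10 or more in 3 libraries or more (9270) were tested on log2(value + 1) with limma 3.58.1 in R 4.3.3, 1 fit over the 4 media with no covariate, trended prior variance and Benjamini-Hochberg adjustment at 0.05. A pseudocount of 1 understates changes of low genes. The recovered reads were also tested with edgeR 4.0.16 and DESeq2 1.42.0, which called 41 and 41 histone genes in deficient minus full and 38 and 38 in glucose-only minus full. Sums, counts and figures used Python 3.11.15 with pandas 2.3.3, scipy 1.17.1 and matplotlib 3.10.9. The procedure was checked on simulated data. Depth was 875033 to 1473587 reads, and counting intervals cover counting error only.

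Members and lists were chosen with earlier results of these data known. The rule for named genes took the 2 most abundant tested members of each type, the 3 lowest and 3 highest changes in each comparison with the full medium, the 2 highest and 2 lowest interactions, members that did not pass where these were 5 or fewer, up to 4 genes of each other list by size of change, and fixed anchor genes; other genes were named after their values were seen. Alternatives were other pseudocounts, filters, scalings, priors, thresholds, tools, a replicate block and leaving out each library. A gene that the rule names outside the members is not reported here.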

Additional observations from a re-analysis of the deposited data

Results flagged for a closer look

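For 10 of the 22 named histone genes the change with glucose differed according to whether glutamine was present. The call was that of the interaction in limma across all genes with Benjamini-Hochberg adjustment. The naming rule took the 2 highest and 2 lowest interactions, so the count of 10 describes the named genes only. Of all tested genes 15.5% were called above 0 and 11% below. The log2 change with glucose in the presence of glutamine, minus that in its absence, was 0.79 for H4C2, 0.91 for H3C3, 1.16 for H4C3, 1.17 for H2BC5, 1.21 for H1-2, 1.26 for H2AC12, 1.46 for H3C2, 2.06 for H2BC14 and 2.48 for H3C12. It was -1.34 for H3C14, whose sequence is shared in full with another gene copy. The call of H3C14 was lost in 9 of 12 fits that leave out 1 library, in edgeR (-1.56) and DESeq2 (-1.68), with the replicate block, at equal totals and with quantile normalization. H2BC14 passed the filter only with its full libraries. Its value did not pass without full replicate B (1.94), with no filter or with a pseudocount of 0.5 (1.71), nor in edgeR (1.54) or DESeq2 (1.40). With 3 libraries a medium, single libraries that stand apart were not tested for.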

How the results depend on the processing

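Over the 22 named histone genes, 3613 of 3730 values under the alternatives kept their direction and side of the threshold, 92 lost the call, 25 gained it and 0 reversed. Of 1608 in comparisons with the full medium, 3 lost it. With a filter on a mean of at least 100, where 8 histone genes could be tested, 8 were called in deficient minus full, 8 in glucose-only minus full, 8 in glutamine-only minus full, 8 in glucose-only minus deficient, 5 in glutamine-only minus deficient, 7 in glutamine-only minus glucose-only and 6 in the interaction. DESeq2 called 10 in the interaction, as did an adjusted p under 0.01. In glutamine-only minus deficient, DESeq2 called 16, against 24 in limma. Scaling to equal totals put the summed histone counts at 12.1, 32.3 and 21.6% of full in the deficient, glucose-only and glutamine-only medium, and moved the median of all genes by -0.39, -0.21 and -0.12 in these comparisons with full and by 0.17 and 0.27 in glucose-only and glutamine-only minus deficient. Leaving out 1 library gave 41 to 41 calls in deficient minus full, 36 to 38 in glucose-only minus full, 40 to 41 in glutamine-only minus full, 38 to 40 in glucose-only minus deficient, 19 to 24 in glutamine-only minus deficient, 23 to 32 in glutamine-only minus glucose-only and 15 to 20 in the interaction, and sums of 15.7 to 16.6, 36.7 to 39.1 and 23 to 24.4% of full. With the replicate block the calls were 41, 38, 41, 40, 24, 30 and 17 in the same order of comparisons, the last counting interactions above 0. The block ended the call of H3C14 below 0 in the interaction and that of GON4L in glucose-only minus full, and changed no other call among the named genes. The letters were not shown to pair the libraries: of 18 same-letter pairs 0 had a correlation over 0.1 (-0.029 to 0.067), and 9 of 12 libraries correlated best with their own letter. A fit of only the groups compared could not give the interaction. For the other lists 827 counts stayed within 1.5 times, 61 were lower and 6 higher. Depth limits the genes near 0: H2BC14 had 1 read in all deficient libraries.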
